A study of Mus musculus with 4 samples.

Results

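TGF-β receptors, SMAD proteins and their feedback inhibitors are described here through 10 genes, chosen by name: Tgfbr1, Tgfbr2, Smad2, Smad3, Smad4, Smad7, Ski, Skil, Tgif1 and Ldlrad4. The choice was made with earlier results of these data known. All 10, out of 18194 genes that the array names on a probe set of their own, were measured, by 25 probe sets that each name 1 of these genes alone. The array, an Affymetrix Mouse Genome expression array, reads each transcript with short immobilised probes, and a probe set summarises the probes for 1 stretch of a transcript.

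TGF-β binds the type II receptor, encoded by Tgfbr2, which then phosphorylates and activates the type I receptor, encoded by Tgfbr1. The active receptor phosphorylates Smad2 and Smad3, which join Smad4 and enter the nucleus to regulate transcription, while Smad7, Ski, Skil, Tgif1 and Ldlrad4 act against the signal at the membrane or on the DNA. In CD4+ T cells TGF-β is known to favour regulatory T cells when IL-2 is present, and the IL-17-producing Th17 fate when IL-6, which activates STAT3, is added.

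The groups were STAT3-deficient cells (CD4-Cre stat3 fl/fl OT2) with their STAT3 wild-type controls (stat3 fl/fl OT2), and STAT5-deficient cells (CD4-Cre stat5 fl/fl OT2) with their STAT5 wild-type controls (stat5 fl/fl OT2), with 1 array each. All were naive CD4+CD44-CD62L+ T cells of C57BL/6J mice, which carry the OT2 T cell receptor transgene, sorted from spleen and lymph nodes. Culture lasted 72 h on antibodies to CD3 and CD28, in TGF-β (2 ng/ml), IL-6 (20 ng/ml) and blocking antibody to IL-4, so every group was exposed to TGF-β. The STAT3 pair also received blocking antibody to IL-2 (10 µg/ml), and the STAT5 pair received IL-2 itself (100 IU/ml). Cre is driven by the Cd4 promoter, which is active from the thymus onward, and the labels give neither the age of the mice nor how many gave cells to a culture. Groups follow the titles, because the genotype entry of each deficient sample names Cre and yet closes by calling it wild type.

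With 1 array per group, differences below could not be set against replicate spread and carry no p-value, and their precision is limited by the small number of arrays. Levels are deposited values read as log2, where a difference of 1 is a 2-fold change, and a gene is called higher or lower at 2-fold or more. Values below 6.20, the middle of all deposited values, were counted as background, which left 12440 genes to compare, all 10 described here among them. Array medians ran from 6.10 (STAT3-deficient) to 6.34 (STAT3 wild type). Stat3 was lower in STAT3-deficient cells but still above background there, at 9.93, against 12.87 in STAT3 wild-type cells (-2.94). Of its other probe sets 1 gave -2.97, and the remaining 2 only -0.22 and -0.41. On their brightest probe sets Stat5a and Stat5b were below background in STAT5-deficient cells and differed by -5.01 and -5.24 within the STAT5 pair. A further probe set for Stat5b stood above background there, at 6.87, against 9.84 in STAT5 wild-type cells (-2.97). The further probe set for Stat5a was below background in STAT5-deficient cells, at 4.76 (-5.98). The 6 measured CD4 T cell markers stood between 10.88 and 13.16 on every array. Among markers of other cells, Cd8b1 stood between 7.70 and 8.06 and Csf1r between 7.12 and 7.73, and the other 14 measured lay at 6.88 or lower.

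Smad3 was the member that differed most. It stood at 7.91 in STAT3-deficient cells, against 10.31 in STAT3 wild-type cells, a difference of -2.40, or 5.27-fold. It stood at 9.87 in STAT5-deficient cells, against 10.03 in STAT5 wild-type cells, a difference of -0.16. The STAT3-deficient array thus stood alone, 1.96 below the nearest of the other 3 arrays, which lay close together. Over all genes compared, 3.11% stood 2-fold or more below each of the other 3 on that array. Each array measures a whole culture, so fewer cells expressing a gene and less of its RNA per cell cannot be told apart.

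The other 2 probe sets for Smad3 were dimmer and moved the same way. One stood at 6.08 in STAT3-deficient cells, against 7.18 in STAT3 wild-type cells (-1.11), and the other at 5.60, against 6.66 (-1.06). Their values in STAT3-deficient cells were below background, which makes the true size of these differences uncertain. The suffix of the one at -1.11 marks probes that can match several transcripts. In the STAT5 pair these probe sets differed by -0.17 and 0.04. As deposited, all 3 probe sets for Smad3 were therefore lower by more than 2-fold in the STAT3 pair and within 2-fold in the STAT5 pair. The dimmer 2 passed 2-fold by less than the gap of 0.24 between the medians of the STAT3 pair's arrays. Taking that gap away would leave them short of 2-fold.

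Smad2, the partner of Smad3 as a substrate of the receptor, did not share that difference on its brighter probe set. It stood at 9.47 in STAT3-deficient cells, against 9.48 in STAT3 wild-type cells, and at 9.85 in STAT5-deficient cells, against 10.06 in STAT5 wild-type cells. The differences were -0.01 and -0.21. Its dimmer probe set stood at 6.91 in STAT3-deficient cells, against 7.85 in STAT3 wild-type cells, a difference of -0.94. The probe sets for Smad2 thus disagree in size within the STAT3 pair, with an SD of 0.66 between them, where the median gene with several probe sets had an SD of 0.23. Smad3 (0.76), Smad7 (0.78) and Ldlrad4 (0.93) had larger SDs in that pair, counting probe sets above background on any array.

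Smad4, the common partner of both, stood at 10.76 in STAT3-deficient cells, against 11.07 in STAT3 wild-type cells (-0.31), and at 11.24 in STAT5-deficient cells, against 11.40 in STAT5 wild-type cells (-0.16). Its 3 probe sets differed by between -0.31 and -0.02 in the STAT3 pair and between -0.16 and 0.02 in the STAT5 pair. No probe set for Smad4 passed 2-fold in either pair.

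**Figure D1:**
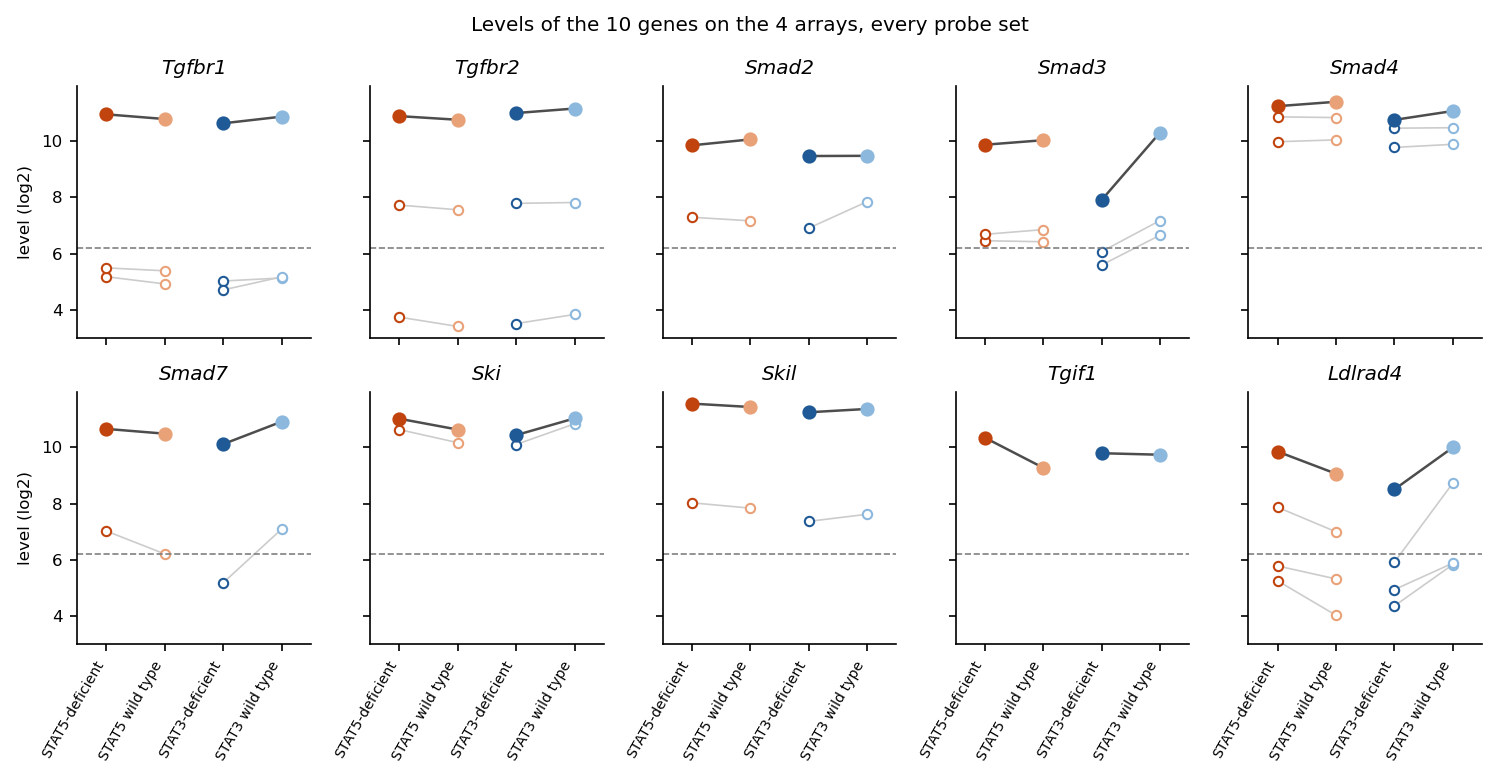
Level (log2) of each of the 10 genes on the 4 arrays, with 1 point per array and probe set. Filled points are the probe set that stands for the gene, open points its other probe sets, lines join the arrays of a pair, and the dashed line is the background level of 6.20. Smad3 at 7.91 on the STAT3-deficient array lies apart from the other 3 arrays, while Tgfbr1, Tgfbr2 and Skil have the narrowest ranges, of 0.32, 0.40 and 0.31.

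The receptor genes stayed within a narrower band than most of the 10 genes. Tgfbr1 stood at 10.64 in STAT3-deficient cells, against 10.87 in STAT3 wild-type cells (-0.24), and at 10.95 in STAT5-deficient cells, against 10.79 in STAT5 wild-type cells (0.17). Tgfbr2 stood at 11.00 in STAT3-deficient cells, against 11.16 in STAT3 wild-type cells (-0.16), and at 10.89 in STAT5-deficient cells, against 10.76 in STAT5 wild-type cells (0.13). Over all 4 arrays the range was 0.32 for Tgfbr1 and 0.40 for Tgfbr2, and of the 10 genes only Skil ranged less, at 0.31. Of their other probe sets, 1 for Tgfbr2 was above background, at 7.79 in STAT3-deficient and 7.82 in STAT3 wild-type cells, and at 7.73 in STAT5-deficient and 7.56 in STAT5 wild-type cells. The remaining 3 lay under the background level on every array.

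Smad7, the inhibitory SMAD that TGF-β itself induces and that blocks the receptor, stood at 10.12 in STAT3-deficient cells, against 10.92 in STAT3 wild-type cells, which left it short of 2-fold (-0.80). In the STAT5 pair it stood at 10.66 in STAT5-deficient cells, against 10.49 in STAT5 wild-type cells (0.17). Its dimmer probe set moved further in both pairs. It stood at 5.19 in STAT3-deficient cells, under the background level, against 7.10 in STAT3 wild-type cells (-1.91), and at 7.02 in STAT5-deficient cells, against 6.21 in STAT5 wild-type cells (0.82). The mean of the 2 probe sets passed 2-fold in the STAT3 pair, at -1.35, so the call for Smad7 rests on the probe set used. The suffix of the dimmer one marks probes that can match other transcripts.

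Ldlrad4 encodes a membrane protein that, in human cells, is known to keep Smad2 and Smad3 from the receptor. It stood at 8.51 in STAT3-deficient cells, against 10.00 in STAT3 wild-type cells, a difference of -1.49, or 2.81-fold. In the STAT5 pair it lay the other way, at 9.85 in STAT5-deficient cells, against 9.06 in STAT5 wild-type cells, again short of 2-fold (0.79). A further probe set for Ldlrad4 stood at 5.92 in STAT3-deficient cells, below background, against 8.73 in STAT3 wild-type cells (-2.81), and at 7.87 in STAT5-deficient cells, against 7.00 in STAT5 wild-type cells (0.87). The remaining 2 lay under the background level on every array and differed by -1.47 and -0.94 in the STAT3 pair and by 0.46 and 1.22 in the STAT5 pair. The opposite directions in the pairs thus rest on the 2 probe sets above background, of which 1 is above it on every array. The suffix of the other marks probes that can match several transcripts.

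Ski and Skil encode related co-repressors that bind the SMAD complex on DNA. Ski stood at 10.43 in STAT3-deficient cells, against 11.03 in STAT3 wild-type cells (-0.60), and at 11.02 in STAT5-deficient cells, against 10.63 in STAT5 wild-type cells (0.39). Its other probe set gave -0.73 and 0.46. Skil stood at 11.25 in STAT3-deficient cells, against 11.37 in STAT3 wild-type cells (-0.12), and at 11.55 in STAT5-deficient cells, against 11.43 in STAT5 wild-type cells (0.12). Neither gene passed 2-fold on any probe set.

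Tgif1, a homeodomain co-repressor of SMAD complexes, was the one member called in the STAT5 pair. It stood at 10.34 in STAT5-deficient cells, against 9.28 in STAT5 wild-type cells, a difference of 1.07, or 2.10-fold. In the STAT3 pair it stood at 9.79 in STAT3-deficient cells, against 9.74 in STAT3 wild-type cells (0.05). The STAT5-deficient array was the highest of the 4, but only 0.55 above the nearest other array, and its own control was the lowest. Over all genes compared, 0.37% stood 2-fold or more above each of the other 3 on that array, and Tgif1 did not. Tgif1 has 1 probe set, so no second reading exists.

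**Figure D2:**
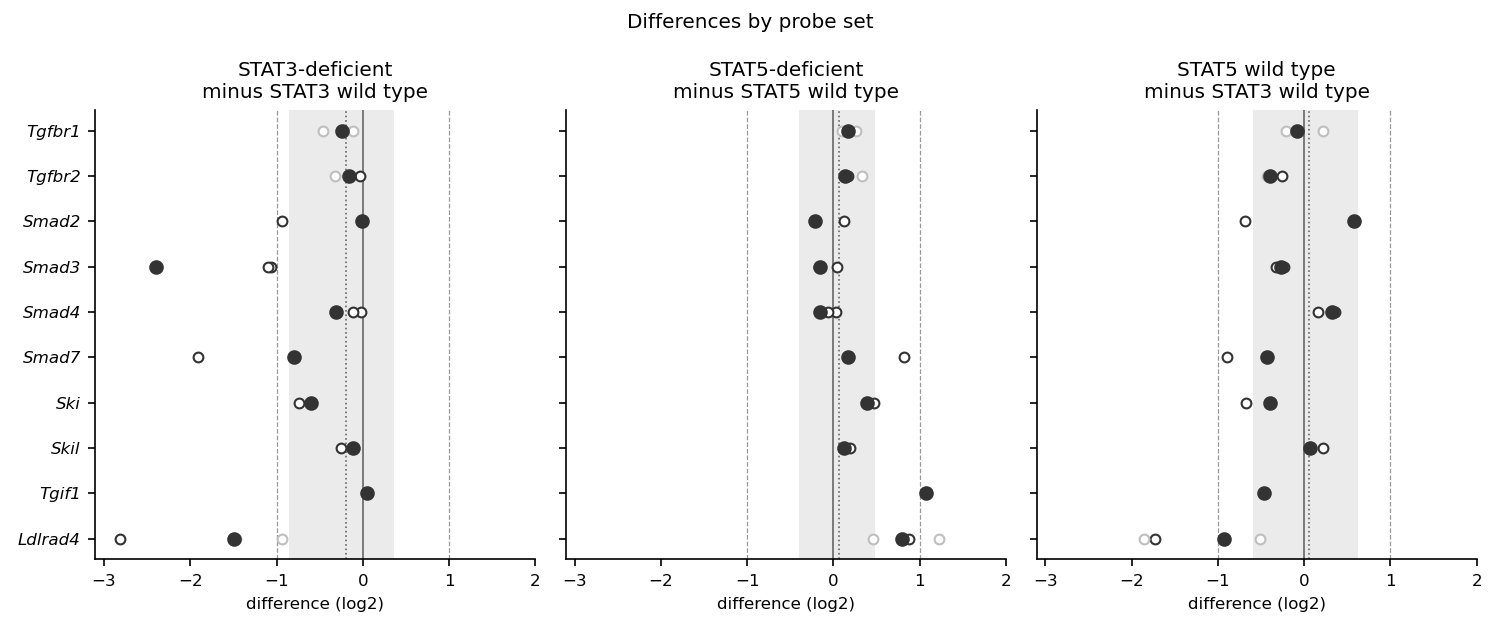
Difference (log2) of each gene in the 3 comparisons, with 1 point per probe set; filled points stand for the gene, open points are its other probe sets, and pale ones were below background throughout. The grey band holds the central 80% of all genes compared, the dotted line is their median, and dashed lines mark 2-fold. Smad3 and Ldlrad4 lie beyond 2-fold on the left in the STAT3 pair, and Tgif1 on the right in the STAT5 pair.

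The letters before the transcription starts of Smad3 and Tgif1 are shown because these members had the largest difference in the STAT3 pair and the STAT5 pair. RefSeq promoter windows of GRCm38.p6, each with 250 bases before and 50 after a start, were at hand for 5 of the 10 genes, 10 windows in all. They were searched on both strands for TTCNNNGAA, the core that STAT dimers bind, for GTCTAGAC, the palindrome that SMAD proteins bind, and for CAGAC, a shorter SMAD box that shares AGAC with the palindrome but does not lie within it. Capitals mark any match, and the Smad3 window has none.
Smad3, chr9:63757945-63758244, minus strand: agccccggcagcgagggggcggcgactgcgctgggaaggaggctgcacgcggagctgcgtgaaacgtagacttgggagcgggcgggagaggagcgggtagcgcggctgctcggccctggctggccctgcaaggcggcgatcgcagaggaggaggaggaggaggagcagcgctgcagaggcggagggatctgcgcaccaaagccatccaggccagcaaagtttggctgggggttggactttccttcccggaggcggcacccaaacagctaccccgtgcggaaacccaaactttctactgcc
Tgif1, chr17:70846728-70847027, minus strand: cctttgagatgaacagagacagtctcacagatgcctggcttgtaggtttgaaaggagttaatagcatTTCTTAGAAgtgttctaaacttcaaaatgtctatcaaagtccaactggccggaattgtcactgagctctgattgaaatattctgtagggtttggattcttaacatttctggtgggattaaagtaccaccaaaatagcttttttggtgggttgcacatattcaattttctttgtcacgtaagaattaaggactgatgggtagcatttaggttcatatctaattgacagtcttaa

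The Smad3 window is rich in CpG pairs, with 25 against a median of 7 over all windows, and holds none of the 3 motifs. The Tgif1 window has 2 CpG pairs and a match to the STAT core that begins at position -183, counted from the start. It is 1 of 5 annotated starts of Tgif1 and was chosen for print because it holds the match, and the array does not show which start was used. The other Tgif1 windows have 15, 23, 22 and 20 CpG pairs and no match to the STAT core. The STAT core occurred in 8.30% of all 32851 windows and in 1 of the 10 member windows. CAGAC occurred in 49.6% of all windows and in 5 of the 10, and GTCTAGAC in 0.213% and in 0 of the 10. A match describes the letters and is not evidence of binding.

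Taking the 10 genes as a group in the STAT3 pair, 2 were lower by 2-fold or more (Smad3 and Ldlrad4) and 0 higher. Over all genes compared, 7.23% were lower and 2.85% higher by that rule. As deposited, 9 of the 10 lay below 0, but with arrays centred on their medians only 5 did, since centring takes away the difference of 0.24 between the medians of these 2 arrays, and with intensity-dependent centring 7 did. The median gene differed by -0.20 as deposited, by 0.04 after centring on medians and by -0.01 after intensity-dependent centring. As deposited, a difference of 0.001 stood at percentile 69.3 of all genes, so most genes lay below 0 too. After centring on medians, Smad3 (-2.15) and Ldlrad4 (-1.25) were still past 2-fold, Smad7 stood at -0.55 and Ski at -0.35. Tgfbr1 (0.01), Tgfbr2 (0.08), Smad2 (0.24) and Skil (0.13) changed sign. The median of the 10 was -0.28 as deposited. Centring also changed the split over all genes, with 514 higher and 590 lower, against 354 and 900 as deposited. By size, Smad3 stood at percentile 1.02 and Ldlrad4 at percentile 3.19 of all genes, counted from the lowest difference.

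In the STAT5 pair, 1 of the 10 was higher by 2-fold or more (Tgif1) and 0 lower, where 1.86% of all genes were higher and 1.74% lower. The 10 genes had a median of 0.15, against 0.06 for all genes, and 7 of them lay above 0 as deposited and with either form of centring. As deposited, a difference of 0.02 stood at percentile 42.9 of all genes, so most genes lay above 0 too. The median gene differed by 0.002 after centring on medians and by 0.01 after intensity-dependent centring. After centring on medians Tgif1 stood at 1.01, and at 1.02 with intensity-dependent centring, barely past 2-fold. By size as deposited, Tgif1 stood at percentile 98.4, Ldlrad4 at 96.7 and Ski at 85.9. The remaining 7 differed by between -0.21 and 0.17.

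**Figure D3:**
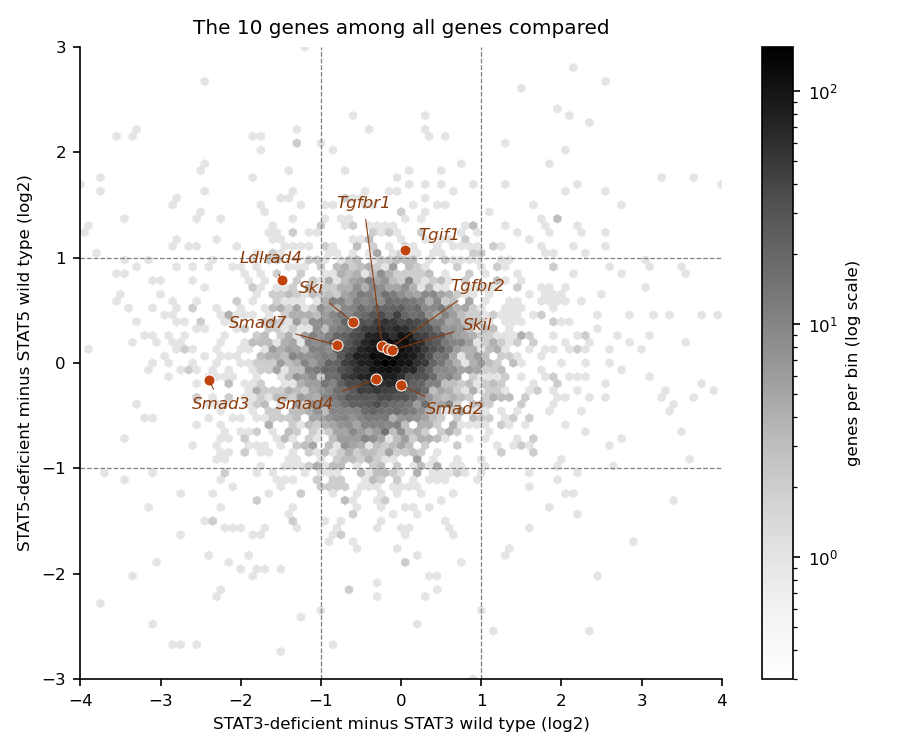
Difference (log2) of every gene compared in the STAT3 pair (horizontal) and the STAT5 pair (vertical), with grey hexagons shaded by the number of genes and the 10 genes in orange. Dashed lines mark 2-fold, and genes beyond the axes are not drawn. Smad3 (-2.40, -0.16) lies far left near the horizontal midline, Ldlrad4 (-1.49, 0.79) at the upper left, and Tgif1 (0.05, 1.07) at the top.

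A comparison of the controls sets IL-2 added (STAT5 wild type) against IL-2 neutralised (STAT3 wild type), although these cultures also differ in the floxed gene they carry. None of the 10 genes passed 2-fold, where 2.35% of all genes were higher and 2.95% lower. Ldlrad4 was farthest, at 9.06 in STAT5 wild-type cells, against 10.00 in STAT3 wild-type cells (-0.93). It passed 2-fold with its probe sets averaged (-1.26) and with intensity-dependent centring (-1.09). Smad2 stood at 10.06 in STAT5 wild-type cells, against 9.48 in STAT3 wild-type cells (0.58), while its dimmer probe set lay the other way (-0.68). Tgif1 (-0.46), Smad7 (-0.43), Tgfbr2 (-0.40) and Ski (-0.40) were lower and Smad4 (0.33) higher, all within 2-fold. With array centring 593 genes were higher and 228 lower, against 292 and 367 as deposited, and Tgfbr1 stood at 0.11, against -0.09 as deposited. This comparison shares a control array with each deletion comparison.

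Ldlrad4, Smad7 and Ski put the 4 arrays in the same order. From the highest level down it was STAT3 wild type, STAT5-deficient, STAT5 wild type and STAT3-deficient. The genes are grouped here because they show this order, so their number supports nothing. The other probe set for Ski, above background on every array, had the same order, while those for Smad7 and Ldlrad4 were below background on at least 1 array. For Ski the first pair in it, at 11.03 and 11.02, was practically level and swapped with arrays centred. Over all genes compared, 7.45% followed this order as deposited and 3.09% with arrays centred, and the pattern was noticed after the values were seen.

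By its values on the 4 arrays, the genes most like Smad3 among 12430 others were Slc24a3, Cpox and Myo5a. Likeness was the distance between the 4 values of each gene after its own mean was taken away, and it was 0.11, 0.17 and 0.17. Slc24a3, a sodium/potassium/calcium exchanger gene, differed by -2.30 in the STAT3 pair, with its STAT3-deficient value below background, and by -0.06 in the STAT5 pair. Cpox, which encodes a haem synthesis enzyme, differed by -2.17 and -0.17, and Myo5a, a myosin motor gene, by -2.16 and -0.12. For Skil, the member with the highest mean level, the nearest were 2210016F16Rik, Ddx42 and Rab10, all at distances of 0.02 or less. With only 4 arrays such likeness is easily met and says nothing of shared control.

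Of 73 further genes of the TGF-β pathway, listed by role, 61 were compared, 8 were below background throughout, and 4 were not analysed here. This list was also chosen with earlier results of these data known. In the STAT3 pair 16 were lower by 2-fold or more and 2 higher (median -0.35), where 7.23% and 2.85% of all genes compared were (median -0.20). The STAT5 pair had 3 lower and 1 higher (median 0.03), where 1.74% and 1.86% of all genes were (median 0.06). With arrays centred, the STAT3 pair had 12 lower and 2 higher, beside 4.74% and 4.13% of all genes. With probe sets averaged it had 12 lower and 2 higher, beside 6.06% and 2.36%. The values below are each gene's brightest probe set alone, so single differences can depend on that choice. The ligand gene Tgfb1 stood at 12.41 in STAT3-deficient cells, against 11.85 in STAT3 wild-type cells (0.56), and differed by 0.15 in the STAT5 pair. Tgfb3 (-1.30) and the activin subunit gene Inhba (-1.29) were lower in the STAT3 pair.

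Among genes that process or receive the ligand, Furin, the protease that cuts pro-TGF-β, stood at 10.65 in STAT3-deficient cells, against 12.53 in STAT3 wild-type cells (-1.88). Thbs1, which can activate latent TGF-β, differed by -1.52, and the co-receptor gene Eng by -1.12. Acvrl1, a type I receptor of the family, was lower in both pairs, at 6.22 in STAT3-deficient cells, against 8.77 in STAT3 wild-type cells, and at 4.80 in STAT5-deficient cells, against 7.45 in STAT5 wild-type cells. The activin receptor gene Acvr2a differed by -1.53 in the STAT3 pair.

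Inside the cell, Dab2, an endocytic adaptor that binds SMADs, was at 5.34 in STAT3-deficient cells, under the background level, against 8.39 in STAT3 wild-type cells (-3.05). Zfyve9, which anchors Smad2 and Smad3 near the receptor, differed by -1.03, Smad5, a SMAD of the BMP branch, by -1.39, the ubiquitin ligase gene Wwp1 by -1.75 and the acetyltransferase gene Kat2b by -1.18. No other co-repressor gene passed 2-fold in either deletion, with Hdac1 farthest at 0.56 in the STAT3 pair. Traf6, of the TAK1 branch, was lower in the STAT5 pair, at 8.64 in STAT5-deficient cells, against 10.00 in STAT5 wild-type cells (-1.35). With arrays centred, Eng, Zfyve9 and Kat2b stood at -0.88, -0.79 and -0.94 in the STAT3 pair, short of 2-fold.

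Known targets of TGF-β went both ways. Pmepa1, a feedback gene related to Ldlrad4, stood at 10.52 in STAT3-deficient cells, against 11.36 in STAT3 wild-type cells (-0.84), and at 11.74 in STAT5-deficient cells, against 11.25 in STAT5 wild-type cells (0.49), short of 2-fold in each. Spsb1 (-2.52), Tgfbi (-5.55), Id2 (-1.60) and Cdkn1a (-1.13) were lower in the STAT3 pair, the last at -0.89 with arrays centred, while Id1 (1.28) and Id3 (1.76) were higher. In the STAT5 pair Tgfbi was higher (3.83) and Id1 lower (-1.80). Of the pathway genes named, Tgfbi, Thbs1 and Zfyve9 also had values below background in STAT3-deficient cells, as had Acvrl1 in STAT5-deficient cells, so the sizes of these differences are uncertain.

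**Figure D4:**
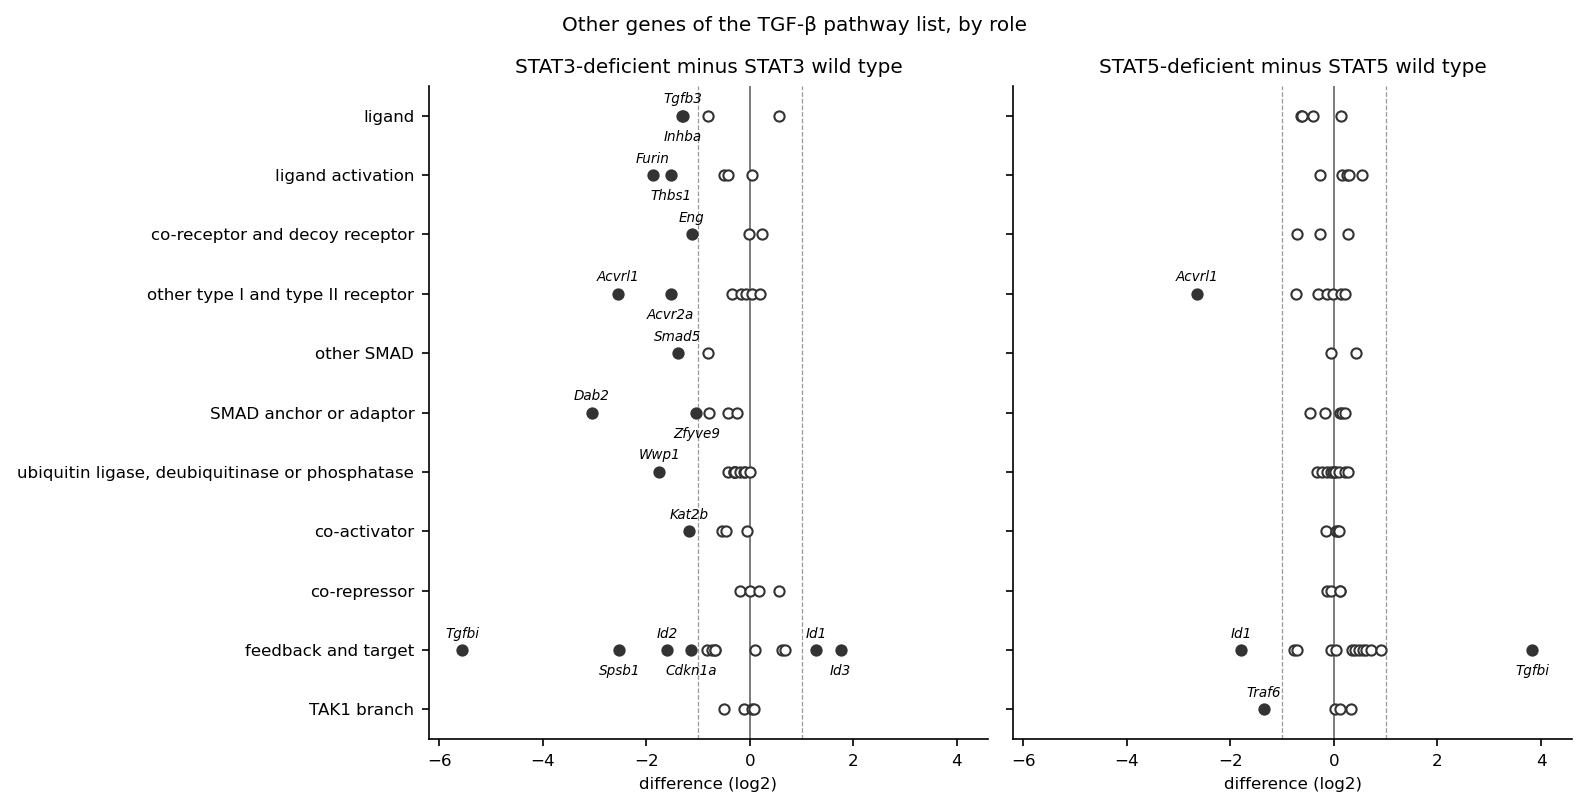
Difference (log2) of 61 further genes of the TGF-β pathway in the STAT3 pair (left) and the STAT5 pair (right), in rows by role, with 1 point per gene. Filled and named points passed 2-fold, which the dashed lines mark. In the STAT3 pair 16 lie beyond it on the left and 2 on the right, where 7.23% and 2.85% of all genes compared do (12 and 2 with arrays centred, beside 4.74% and 4.13%), and in the STAT5 pair 3 and 1, where 1.74% and 1.86% do.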

How the data were processed

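Biotin-labelled total RNA of 4 cultures was hybridised to 1 array each. The log2 values deposited by the authors were made with Affymetrix Power Tools, per the submitters' processing notes, which give no version. That scale was read from their range, 2.48 to 15.09; their base, summarisation and background correction are not stated there. A different base would change every fold.

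The platform annotation names 1 gene for 34958 of 45101 probe sets; the others were left out. All 10 member symbols matched RefSeq by Entrez identifier. A gene takes the value of its brightest probe set on average. Genes whose highest value exceeded 6.20 were compared (percentile 50 of all values). Differences of array values have no test, and calls use 2-fold. The calling step was tested on simulated data, only with differences well past 2-fold in genes well above background. That test says nothing of calls near 2-fold or near background. Python 3.11.15 with pandas 2.3.3 was used, and statsmodels 0.14.6 for loess (span 0.4).

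The members and lists were chosen with earlier results of these data known. Genes named are the 10 members, the targeted genes, pathway genes called in either deletion (otherwise the farthest of a role) and the 3 genes most like the widest-ranging and the highest member. Tgfb1, Pmepa1 and the markers Cd8b1 and Csf1r were named after their values were seen. Alternatives were other probe set choices, filters, centrings and thresholds, plus, chosen after seeing the data, a call against each of the other 3 arrays.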

Additional observations from a re-analysis of the deposited data

Results flagged for a closer look

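With 1 array per group the gap between the STAT3 pair and the STAT5 pair could not be tested. The pairs also differed in IL-2, neutralised in the STAT3 pair and added in the STAT5 pair. The gaps below therefore cannot tell the deletion from the IL-2 setting. Between controls (STAT5 wild type minus STAT3 wild type) the same genes differed by -0.93 (Ldlrad4), -2.71 (Tgfbi) and 2.03 (Id1). Ldlrad4, a membrane inhibitor of SMAD activation, lay in opposite directions in the STAT3 pair (-1.49) and the STAT5 pair (0.79), a gap of -2.28, with 1 side past 2-fold. Tgfbi, an extracellular matrix gene induced by TGF-β, was past 2-fold in opposite directions (-5.55 and 3.83), a gap of -9.39, with the STAT3-deficient array under the background level. Id1, an inhibitor of basic helix-loop-helix factors, was past 2-fold the other way round (1.28 and -1.80), a gap of 3.08. Its lower value of each pair, 6.54 in STAT3 wild-type and 6.77 in STAT5-deficient cells, lay little above the background level.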

How the results depend on the processing

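Members were on the same side of the 2-fold limit in 114 of 117 pairings of a member and comparison with an alternative. Only alternatives in probe set choice and centring enter this count, not those in filter or threshold. Some pairings could not move, because the alternative kept the same probe set. The other 3 gained a call. With probe sets averaged these were Smad7 in the STAT3 pair (-1.35) and Ldlrad4 between controls (-1.26). With loess centring it was Ldlrad4 between controls (-1.09). Uncalled members near 0 changed sign with centring, as given above. Lower members in the STAT3 pair numbered 2, and 4 at 1.5-fold (all genes 19.2%), 1 at 3-fold (2.76%) and 1 (Smad3) against each of the other 3 arrays, a position that 3.11% of all genes took. Higher members in the STAT5 pair numbered 1 (Tgif1), and 2 at 1.5-fold (all genes 6.43%), 0 at 3-fold (0.587%) and 0 against each of the other 3 arrays (0.37%). They numbered 0 of 9 without probe sets that can match several transcripts (1.85%), since the one for Tgif1 is of that kind. Lower members between controls numbered 0, and 1 (Ldlrad4) with averaging, loess centring or 1.5-fold (all genes 2.28%, 2.75% and 9.97%). Of 61 pathway genes compared, those higher in the STAT3 pair numbered 2 (all genes 2.85%), and 1 of 53 without such probe sets (2.71%). They numbered 4 at 1.5-fold (5.66%), 1 at 3-fold (1.44%) and 0 against the other 3 arrays (share of all genes not computed). Lower ones numbered 16 (7.23%), and 7 both at 3-fold (2.76%) and against the other 3 arrays (3.11%). In the STAT5 pair the 1 higher (all genes 1.86%) became 4 at 1.5-fold (6.43%). The 3 lower (1.74%) became 9 at 1.5-fold (5.18%) and 1 against the other 3 arrays (share of all genes not computed). Between controls the 4 higher (all genes 2.35%) became 8 at 1.5-fold (10.8%) and 2 at 3-fold (0.659%). The 6 lower (2.95%) became 3 of 49 with the filter at percentile 75 (1.96%) and 1 at 3-fold (0.764%). No paired analysis was possible because each group has 1 array. Signal near the background level limits the size of any difference there, and 1 culture per group limits every value.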
